A study of Homo sapiens with 13 samples.

Results

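The loci described here are those of 9 genes that act on or with beta-catenin: CTNNB1, which encodes beta-catenin itself, the destruction-complex genes APC, AXIN1 and GSK3B, the ubiquitin-ligase gene BTRC, the coactivator gene BCL9, and the corepressor genes TLE1, TLE3 and TLE4. CUT&RUN, in which an antibody directs a nuclease to the chromatin that its target occupies, had been performed in Nalm6 cells, a human cell line established from B-cell acute lymphoblastic leukaemia. There were 4 groups of 3 replicates: LEF1 antibody on control cells, LEF1 antibody on cells given prednisolone (a synthetic glucocorticoid, 5 µM for 24 h), and TCF7L2 antibody on control and on prednisolone cells. All 4 groups came from this line, grown in charcoal-stripped serum. The labels give the control cells no treatment in one field and a vehicle in another, and they describe the replicates as coming from independent experiments. A peak was counted as a member when it overlapped the hg19 span of one of the 9 genes extended by 25 kb on both sides, and such an extended span is called the gene's window. The spans are known to the kb only. Of the 3429979 peaks in the 12 deposited lists, 3037 lay in the 9 windows: 177 at CTNNB1, 459 at APC, 78 at AXIN1, 493 at GSK3B, 393 at BTRC, 507 at BCL9, 268 at TLE1, 129 at TLE3 and 533 at TLE4. The windows differ in width, so these counts are not compared between genes.

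In canonical Wnt signalling, TCF and LEF proteins stay on DNA and exchange partners. Without a Wnt signal, beta-catenin is phosphorylated in a complex of APC, AXIN and the kinase GSK3, is recognised by the ubiquitin ligase that BTRC belongs to and is degraded, while TLE corepressors occupy TCF and LEF proteins. When the complex is inhibited, beta-catenin accumulates, replaces TLE on TCF and LEF and recruits coactivators by way of BCL9. LEF1 is prominent in lymphocyte progenitors, and the series' title sets canonical Wnt against glucocorticoid signalling in leukaemia, so the question here is whether LEF1 and TCF7L2 peaks at the genes of the pathway's own machinery differed after prednisolone.

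Promoter sequences are shown for BCL9, whose 5′ end held a TCF7L2 peak ranked 324 or better in every TCF7L2 library. CTNNB1 is shown because its LEF1 top peaks all lay in 1 region just after the 5′ end. GSK3B is shown because a LEF1 region before its 5′ end held top peaks after prednisolone only, although its folds nearly meet between the treatments. The sequences are the 250 bases before the RefSeq start in GRCh38.p14, which is not the hg19 build of the peaks, and no coordinate was converted. Of the 9 genes, 8 had an entry, with 12 entries in all, and BTRC had none. Capitals would mark the TCF/LEF motif (the letters CTTTGAA, the variant CTTTGAT, the variant CTTTGTA or the variant CTTTGTT, on either strand), and the sequences of BCL9, CTNNB1 and GSK3B hold none.
BCL9 (chr1:147541251-147541500, + strand): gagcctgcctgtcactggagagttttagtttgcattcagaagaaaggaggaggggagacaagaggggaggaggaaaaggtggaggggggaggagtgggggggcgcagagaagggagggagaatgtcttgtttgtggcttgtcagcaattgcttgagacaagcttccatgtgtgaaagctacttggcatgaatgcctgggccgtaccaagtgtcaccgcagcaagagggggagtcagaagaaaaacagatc
CTNNB1 (chr3:41199255-41199504, + strand): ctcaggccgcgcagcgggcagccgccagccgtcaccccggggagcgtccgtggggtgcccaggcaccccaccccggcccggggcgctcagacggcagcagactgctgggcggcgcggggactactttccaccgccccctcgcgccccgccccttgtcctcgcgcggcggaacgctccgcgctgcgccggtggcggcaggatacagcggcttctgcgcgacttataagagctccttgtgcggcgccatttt
GSK3B (chr3:120094448-120094697, − strand): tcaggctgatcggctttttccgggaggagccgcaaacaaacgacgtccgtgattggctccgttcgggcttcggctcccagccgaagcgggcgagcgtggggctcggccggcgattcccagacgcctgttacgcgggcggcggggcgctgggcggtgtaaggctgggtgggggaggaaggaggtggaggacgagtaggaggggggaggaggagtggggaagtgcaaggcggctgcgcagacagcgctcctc
One of the 12 entries held a TCF/LEF motif, an entry of TLE4, and the site is shown with 10 bases on each side, the motif in capitals.
TLE4 (chr9:79573053-79573079, + strand): ttattgttgtCTTTGAAgcccctggaa
Over all 35116 RefSeq promoters of this length, 12% held the TCF/LEF motif on either strand and 0.327% the glucocorticoid receptor motif, which none of the 12 entries held. A match is a description of these letters only.

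The lists were of very unequal length, 128863 to 395786 peaks, so each was ranked by the authors' −log10 p-value and its 20000 best peaks, called top peaks here, were compared. The read depth behind the lists was not used here. The LEF1 lists were stronger: the −log10 q-value of the 20000th peak was 5.493 to 6.623 in the 6 LEF1 lists and 0.39 to 0.996 in the 6 TCF7L2 lists, so that the TCF7L2 top peaks reach far into weak calls. The shortest peak of a list also fell into 2 sets within each antibody (164 to 165 bp against 187 to 197 bp for LEF1, 158 to 167 bp against 193 to 201 bp for TCF7L2), which mixed the treatments, and values within these sets stand beside the pooled ones below. Each set compares 1 library of one treatment with 2 of the other, so these values have no replication of their own. The 9 windows held 15 to 26 top peaks per LEF1 list and 20 to 27 per TCF7L2 list. Peaks equal at the 20000th place were taken in order of position. Such tied places were most numerous in TCF7L2 prednisolone replicate 3 (7599), then prednisolone replicate 1 (2231) and control replicate 2 (1659). Tied top peaks made up 3 of 29 at GSK3B, 3 of 39 at TLE4 and 2 of 10 at BTRC. They made up 5 of 98 at BCL9, 1 of 14 at CTNNB1 and 1 of 21 at TLE1. With equal peaks in random order, all 48 recomputed values kept their direction and call. No IgG background measured in the same way stands beside the peaks, since that sample was not analysed here.

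Prednisolone was compared with control first by the number of top peaks in each window (3 libraries against 3, two-sided exact permutation test, smallest possible p = 0.1, so no single window can pass 0.05). At GSK3B both antibodies gave more top peaks in every prednisolone library than in any control library. At TLE1 this held for LEF1, and at TLE4 the TCF7L2 libraries went the other way. The windows of CTNNB1, AXIN1, BTRC, BCL9 and TLE3 did not separate the treatments with either antibody, and neither did that of APC. Of the 9 windows, 2 were higher without overlap for LEF1, where 5.05% of all 200-kb tiles of the genome were, and 0 were lower, where 4.13% of tiles were. For TCF7L2, 1 of 9 was higher (3.16% of tiles) and 1 of 9 lower (3.58% of tiles). The windows have other widths than the tiles and were chosen with earlier results known, so these shares are given as a description. Every adjusted p (Benjamini-Hochberg over the windows and all tiles, 9183 for LEF1 and 12959 for TCF7L2) from the exact tests was 1.

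**Figure D1:**
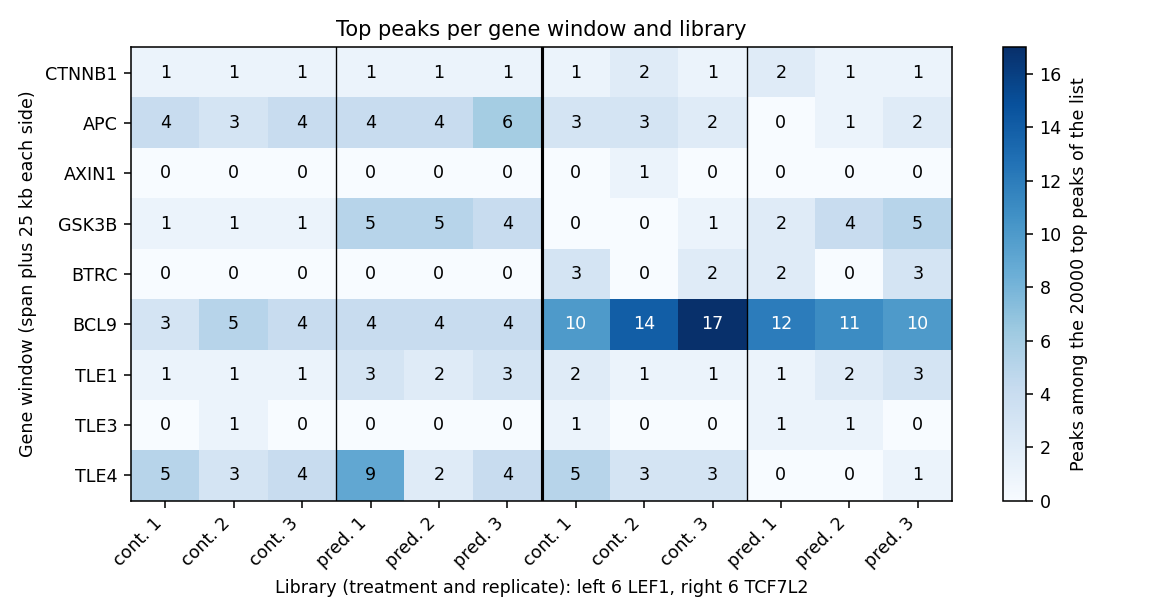
Number of top peaks in each of the 9 gene windows in every library, drawn as a grid of genes (rows) by libraries (columns), with the 6 LEF1 libraries left and the 6 TCF7L2 libraries right of the thick line; the colour scale and the printed number both give the count. In the GSK3B row every prednisolone cell exceeds every control cell for both antibodies, and in the BCL9 row every TCF7L2 cell, 10 to 17, exceeds every LEF1 cell, 3 to 5.

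GSK3B encodes the kinase that phosphorylates beta-catenin for degradation. With the LEF1 antibody its window (119516001 to 119838000 of chromosome 3, minus strand) held 1, 1 and 1 top peaks in the control libraries and 5, 5 and 4 in the prednisolone libraries. The means were 1.0 ± 0.0 and 4.67 ± 0.58 (SD, n = 3 each), a difference of 3.67 (exact permutation p = 0.1). With the TCF7L2 antibody the window held 0, 0 and 1 top peaks in control and 2, 4 and 5 in prednisolone libraries. Of the 5 in TCF7L2 prednisolone replicate 3, 2 were tied peaks, as was 1 of the 5 in LEF1 prednisolone replicate 1. The groups do not overlap with either antibody. The TCF7L2 means were 0.33 ± 0.58 and 3.67 ± 1.53, a difference of 3.33 (exact permutation p = 0.1, n = 3 each). Within the sets of libraries of like shortest peak, each 1 library against 2, the LEF1 difference was 3.5 and 4.0, and the TCF7L2 difference 1.5 and 4.5. The difference between the treatment effects of the antibodies was -0.33 (exact permutation p = 1.0, 400 relabellings).

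To see which places made up these counts, top peaks of the 6 libraries of one antibody were merged into regions wherever they overlapped by at least 1 bp. Gained regions had a top peak in the 3 libraries of prednisolone cells but in none of the controls, and lost regions had the reverse. Either pattern alone corresponds to an exact p of 0.1. The 9 windows held 33 LEF1 regions, of which 4 were gained, against 2.82% of all LEF1 regions, and 0 lost, against 1.92%. Of the 4, 3 lay in the GSK3B window and 1 in that of TLE1. The windows held 87 TCF7L2 regions, of which 2 were gained, against 0.360% of all TCF7L2 regions, 1 at GSK3B and 1 at BCL9. The other 9 TCF7L2 regions of the GSK3B window each had a top peak in 1 library only. The larger TCF7L2 count at GSK3B thus rests, beyond the gained region, on places that no second library shared. The 1 lost TCF7L2 region, against 1.24% of all, was at TLE4. The other 9 TCF7L2 regions of the TLE4 window also had a top peak in 1 library only.

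One region of GSK3B was gained with both antibodies. For LEF1 it spanned chr3:119625469-119628759, within the gene span and 184.2 kb from its 5′ end. The LEF1 fold, the authors' enrichment over the background that MACS2 modelled, was 14.11, 26.38 and 16.83 in the prednisolone libraries, whose peaks ranked 1725, 252 and 686 in their lists. The control libraries held only weaker peaks there, with folds of 2.42, 3.57 and 4.0 at ranks 197925, 62205 and 51383. The prednisolone summits lay at 185.39, 185.38 and 185.38 kb, whereas the summits of the best control peaks lay at 186.62, 186.27 and 186.74 kb. Control replicate 1 also had a weaker LEF1 peak, with a fold of 2.06 at rank 254807, whose summit lay at 185.45 kb. By its worst prednisolone rank this region stood in place 13 of the 1040 gained LEF1 regions of the genome.

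The gained TCF7L2 region of GSK3B, chr3:119627020-119627951, lies inside the LEF1 region. Its prednisolone peaks had folds of 5.44, 7.89 and 3.85 and ranked 2453, 814 and 4037. Of the control TCF7L2 lists, replicate 2 held a peak there with a fold of 1.96 at rank 189327, and the other lists held none. The TCF7L2 summits, 185.43, 185.47 and 185.38 kb, were within 0.1 kb of the LEF1 summits in the same window. Gained regions of both antibodies overlapped at 59 places in the genome, which is 5.67% of the 1040 gained LEF1 regions and 20.63% of the 286 gained TCF7L2 regions, and this one is the only such place in the 9 windows.

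The next GSK3B region, chr3:119628915-119632326, held a LEF1 top peak in all 6 libraries. Its LEF1 folds were 6.23, 5.29 and 6.52 in control and 18.28, 13.98 and 13.06 in prednisolone libraries, and its ranks were 13375, 12024 and 11137 against 645, 1341 and 1634. All 3 prednisolone ranks were better than all control ranks. Of the 8 LEF1 regions of the windows held in all 6 libraries, 2 had this pattern, against 11.5% of such regions in the genome, and 1 had the opposite pattern, against 14.7%. No TCF7L2 library had a top peak in this GSK3B region, although 5 of 6 TCF7L2 lists held a weak one, with folds from 2.25 to 3.11. The 2 neighbouring regions of GSK3B therefore differed in TCF7L2 top peaks after prednisolone only, since neither had one in a control library.

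The other gained LEF1 regions of GSK3B were weaker. At chr3:119604772-119605806, 207.2 kb from the 5′ end, the LEF1 folds were 3.8, 4.33 and 4.0 in control and 8.67, 8.32 and 6.97 in prednisolone libraries. At chr3:119814103-119815204, 1.1 kb before the 5′ end, they were 2.05, 2.05 and 2.62 in control and 2.67, 2.83 and 2.65 in prednisolone libraries. There the prednisolone ranks of 12957, 11838 and 12521 and the control ranks of 40924, 32394 and 27911 lie close on either side of rank 20000, and the folds of the groups nearly meet. TCF7L2 went the other way there. Its only control top peak of the window, chr3:119814200-119814748, was in replicate 3, with a fold of 2.55 at rank 4661. Among TCF7L2 prednisolone lists, replicate 1 held a weak peak, with a fold of 1.64 at rank 153359, and replicates 2 and 3 held none. A further short LEF1 region before the 5′ end, chr3:119813714-119813934, had peaks in the 3 prednisolone lists only, with folds of 1.72, 2.18 and 1.62, of which only that of replicate 2 was a top peak, and no TCF7L2 list held a peak in it.

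**Figure D2:**
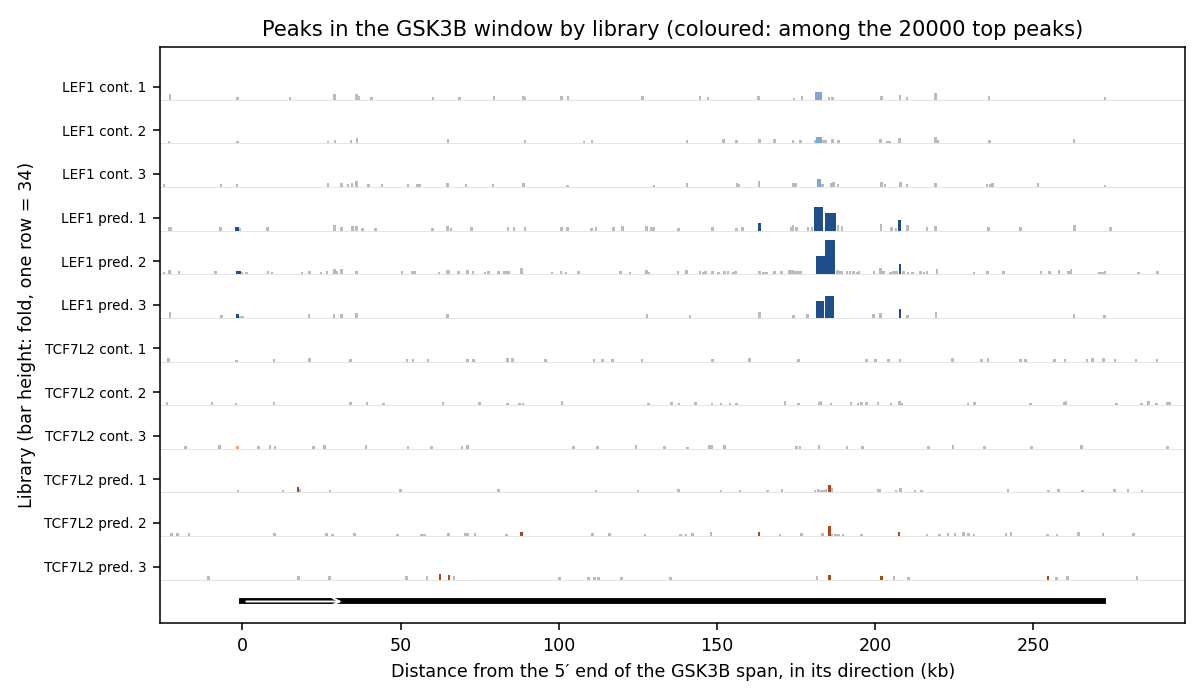
Peaks in the GSK3B window in each of the 12 libraries, 1 row per library, by distance from the 5′ end of the span (horizontal axis, kb); bar height is the authors' fold on one common scale, coloured bars are top peaks, grey bars are other deposited peaks, and the shortest peaks are drawn wider than they are. Coloured bars near 185 kb, tall for LEF1 and low for TCF7L2, appear in the prednisolone rows of both antibodies and in no control row.

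TLE1 encodes a Groucho-family corepressor of TCF and LEF proteins. Its window (84174001 to 84329000 of chromosome 9, minus strand) held 1, 1 and 1 LEF1 top peaks in control and 3, 2 and 3 in prednisolone libraries, means of 1.0 ± 0.0 and 2.67 ± 0.58 that differ by 1.67 (exact permutation p = 0.1, n = 3 each). The LEF1 groups do not overlap, and the difference was 1.5 and 2.0 within the sets of like shortest peak. With TCF7L2 the counts were 2, 1 and 1 against 1, 2 and 3, which overlap.

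The gained LEF1 region of TLE1, chr9:84270272-84272591, lies within the gene span, 31.4 kb from its 5′ end. Its LEF1 folds were 3.08, 1.99 and 2.42 in control and 20.33, 21.08 and 13.38 in prednisolone libraries, with prednisolone ranks of 895, 483 and 1516, which put it in place 11 of the 1040 gained LEF1 regions. TCF7L2 folds in the prednisolone libraries were 8.85, 2.84 and 4.58. The peak of replicate 2 ranked 26859 and was not a top peak, so the region does not count as gained for TCF7L2. Of the control TCF7L2 lists, replicate 2 held a peak with a fold of 1.77 and the other lists held none.

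A longer TLE1 region, chr9:84207789-84215312, 88.7 kb from the 5′ end, was held by LEF1 in all 6 libraries and is the other one whose ranks were all better after prednisolone. Its LEF1 folds were 11.67, 12.15 and 10.24 in control and 17.23, 15.75 and 11.37 in prednisolone libraries. The ranks of 2918, 2772 and 3249 against 633, 788 and 2460 do not overlap, but those of prednisolone replicate 3 and control replicate 2 are near each other. TCF7L2 gave top peaks in it in all 3 control libraries, with folds of 5.84, 5.93 and 4.38, and in prednisolone replicate 2, with a fold of 7.91, whereas prednisolone replicates 1 and 3 had folds of 2.83 and 2.4. The remaining LEF1 region of TLE1, chr9:84279158-84280652, had a top peak in prednisolone replicates 1 and 3, at ranks 11469 and 9687, and in no control library.

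TLE4 encodes another corepressor of the same family. With TCF7L2 its window (82162001 to 82367000 of chromosome 9, plus strand) held 5, 3 and 3 top peaks in control and 0, 0 and 1 in prednisolone libraries. The 1 in prednisolone replicate 3 was a tied peak. The means of 3.67 ± 1.15 and 0.33 ± 0.58 differ by -3.33 (exact permutation p = 0.1, n = 3 each), the groups do not overlap, and the difference was -3.0 and -4.5 within the sets of like shortest peak. With LEF1 the counts were 5, 3 and 4 against 9, 2 and 4. Of the 9 in prednisolone replicate 1, 2 were tied peaks. The LEF1 groups overlap, and prednisolone replicate 1 alone makes their mean difference positive: it was 1.0 with and -1.0 without this library. The treatment effects of the antibodies differed by -4.33 (exact permutation p = 0.125, 400 relabellings). The difference was -2.33 (exact p = 0.26) without LEF1 prednisolone replicate 1 and -5.83 (exact p = 0.025) without LEF1 prednisolone replicate 2. These p-values are unadjusted, and with all libraries the difference did not pass after adjustment over 13165 windows and tiles.

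The lost TCF7L2 region of TLE4, chr9:82224509-82225743, lies within the gene span, 37.5 kb from the 5′ end. Its TCF7L2 folds were 4.1, 4.57 and 4.84 in control libraries, at ranks 8170, 4886 and 6176. In prednisolone libraries they were 1.87 and 2.25 in replicates 1 and 2, and replicate 3 held no peak. By its worst control rank it stood in place 314 of the 982 lost TCF7L2 regions. The LEF1 region that contains it, chr9:82222602-82225977, is the one whose prednisolone ranks were all worse: 4134, 1860 and 2494 in control against 5165, 16968 and 12637. Its LEF1 folds were 11.31, 15.46 and 13.99 in control and 11.21, 5.16 and 7.34 in prednisolone libraries, of which replicate 1 was close to the lowest control. LEF1 summits lay between 37.9 and 38.04 kb in all 6 libraries.

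A neighbouring LEF1 region of TLE4, chr9:82205506-82209554, was held in all 6 LEF1 libraries with folds of 8.12, 6.42 and 9.22 in control and 7.79, 8.76 and 8.53 in prednisolone libraries. These groups overlap. TCF7L2 had a top peak in it in control replicate 2 only. At the 5′ end of TLE4, chr9:82187426-82188522, TCF7L2 control replicate 3 gave the only top peak, and the LEF1 peaks there ranked 41987 at best.

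**Figure D3:**
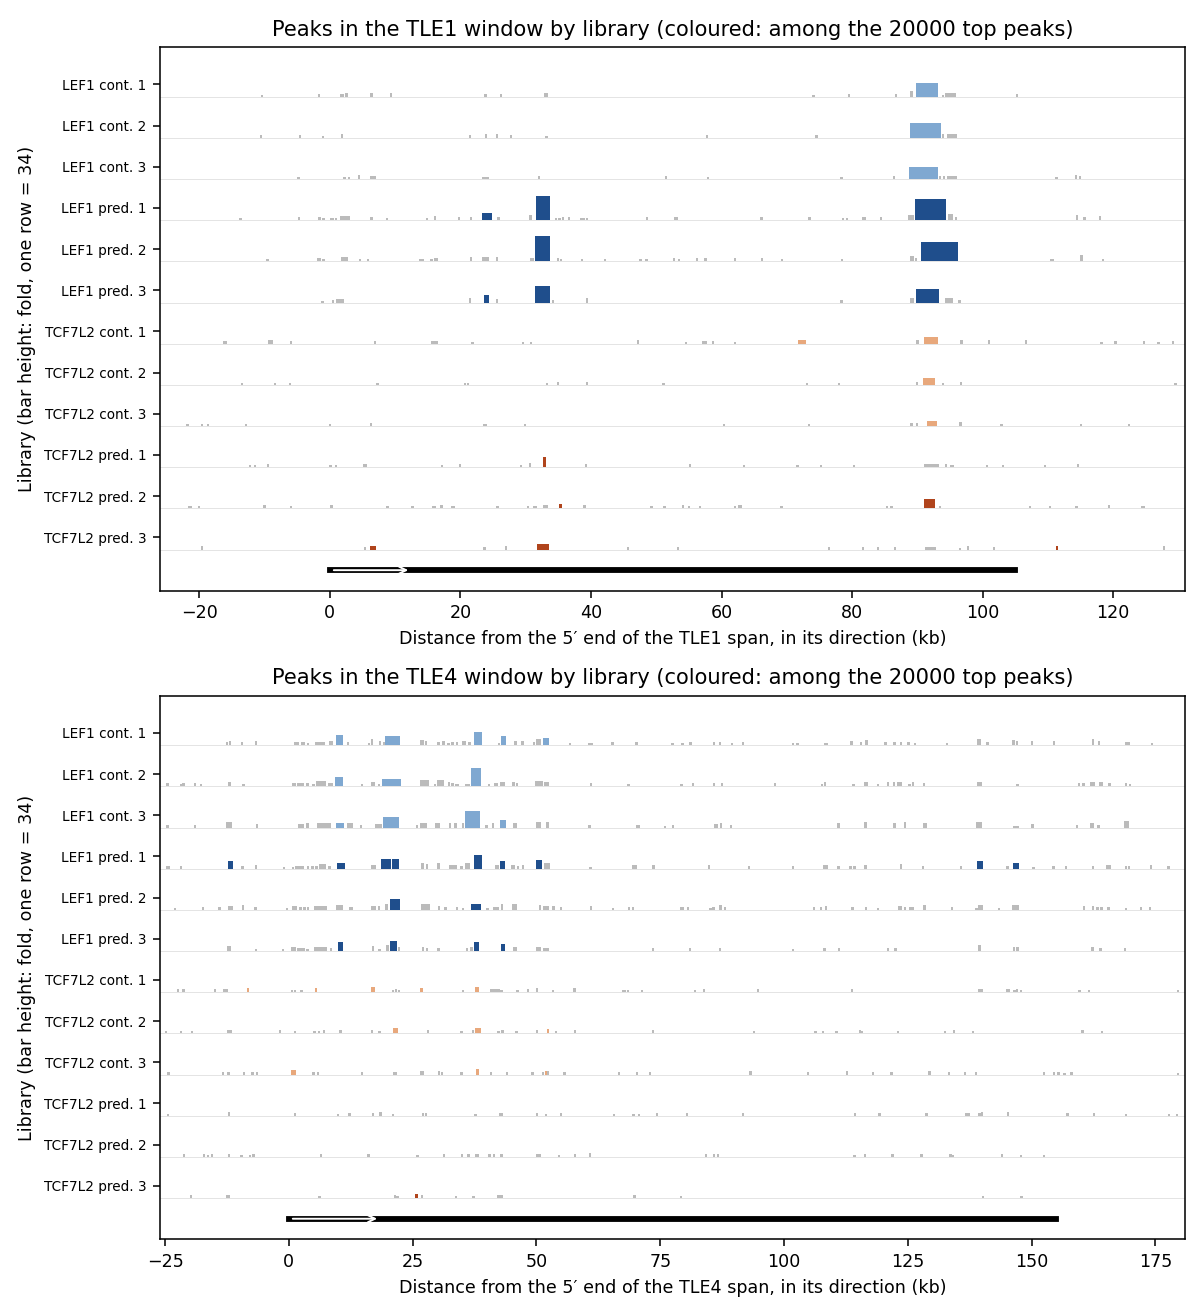
Peaks in the TLE1 and TLE4 windows in each of the 12 libraries, drawn as in the GSK3B map, by distance from the 5′ end of each span (horizontal axis, kb). In the TLE1 panel the LEF1 prednisolone rows have a tall top peak near 33 kb that the control rows lack, and in the TLE4 panel the TCF7L2 prednisolone rows lack the coloured bar near 38 kb of the 3 control rows.

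TLE3, another corepressor gene of this family, had few peaks. Its window (70315001 to 70415000 of chromosome 15, minus strand) held 0, 1 and 0 LEF1 top peaks in control and 0, 0 and 0 in prednisolone libraries, and 1, 0 and 0 against 1, 1 and 0 with TCF7L2. The 1 LEF1 top peak lay just before the 5′ end, at chr15:70390682-70391003. In the full lists all 3 control libraries had a LEF1 peak there, with folds of 3.95, 4.99 and 4.58 at ranks 35206, 14829 and 20864, and no prednisolone library had one. In the full lists, 3 of the 614 LEF1 regions of the windows (0.489%) were in all control and no prednisolone lists, against 0.710% of all regions, and 2 (0.326%) were in all prednisolone and no control lists, against 0.282%. No TCF7L2 list held a peak at this TLE3 place. For TCF7L2, 6 of 938 regions (0.64%) were in all control and no prednisolone lists, against 0.439% of all regions, and 1 (0.107%), at GSK3B, was in all prednisolone and no control lists, against 0.126%. These shares are near those of the genome.

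BCL9 encodes the adaptor that joins beta-catenin to further coactivators, and its window differed between the antibodies. With LEF1 the window (146988001 to 147123000 of chromosome 1, plus strand) held 3, 5 and 4 top peaks in control and 4, 4 and 4 in prednisolone libraries. With TCF7L2 it held 10, 14 and 17 in control and 12, 11 and 10 in prednisolone libraries. Every TCF7L2 library was above every LEF1 library, and neither antibody separated the treatments. The mean difference between antibodies was 8.33 (exact permutation p = 0.005 with antibody labels exchanged within treatment, the smallest that 400 relabellings allow, and an adjusted p of 0.0844 over 13165 windows and tiles). Of the 9 windows, 1 was higher for TCF7L2 in this way, against 2.49% of tiles, and 0 lower, against 3.43%.

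With 5000 top peaks per list in place of 20000, the BCL9 difference was 5.83 (exact permutation p = 0.005). Of the 33 regions that the 12 lists gave in the BCL9 window, 27 had a TCF7L2 top peak and no LEF1 top peak, 6 had both, and 20 came from 1 library. Restricted to peaks whose −log10 q-value reached 5, which the TCF7L2 lists have in far smaller number (1271 to 3524 per list, against 21764 to 27309 for LEF1), the difference between antibodies was 0.17 (exact permutation p = 1.0). Equal peaks at the 20000th place, which were taken in order of position and so favour chromosome 1, made up 5 of the 98 top peaks of the BCL9 window. With these in random order the difference was 7.67 (exact permutation p = 0.005).

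The BCL9 window held high-ranked TCF7L2 peaks in both treatments. At the 5′ end, chr1:147012124-147018008, TCF7L2 peaks ranked 247, 208 and 173 in control and 178, 216 and 324 in prednisolone libraries, with folds of 6.82, 9.52 and 12.27 against 11.3, 7.21 and 4.85. The summits lay at 0.16 kb in control replicate 1 and at 0.15 kb in the other 5 libraries, so they agree within the kb precision of the span. The strongest LEF1 peaks in this region lay elsewhere, with summits from 4.01 to 4.12 kb. Their folds were 3.54, 4.22 and 3.17 in control and 5.69, 4.82 and 4.04 in prednisolone libraries. These summits are of the strongest peak per library only. After prednisolone, TCF7L2 top peaks other than the strongest also overlapped the LEF1 place, so the antibodies were not apart there. The BCL9 sequence printed above ends at a RefSeq start and was not matched to this peak, which is on another build.

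A region within the BCL9 span, chr1:147070188-147073016, 57.2 kb from the 5′ end, held a top peak in all 6 TCF7L2 libraries and in no LEF1 library. Its TCF7L2 ranks were 255, 205 and 205 in control and 229, 247 and 336 in prednisolone libraries. The LEF1 lists held weaker peaks there, with folds of 3.93, 3.39 and 3.4 in control and 2.92, 2.51 and 1.59 in prednisolone libraries, at ranks from 30374 to 102464. It is the only one of the 97 regions of the windows, merged over the 12 lists, that was held by TCF7L2 alone in this sense, against 0.632% of all regions, and the GSK3B region at 180.7 kb is the only one held by LEF1 alone, against 1.56%. For both the exact permutation p was 0.005 and the adjusted p 0.228 over 94421 regions, so neither passed.

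Top peaks in all 12 libraries were found at 2 of the 97 regions, against 0.713% of all regions, and both lay in the BCL9 window. At chr1:147005379-147007599, 5.4 kb before the 5′ end, LEF1 folds were 10.15, 8.1 and 7.08 in control and 6.68, 3.22 and 8.59 in prednisolone libraries. TCF7L2 folds there were 8.6, 4.67 and 3.75 in control and 4.22, 2.46 and 5.39 in prednisolone libraries. The summits of both antibodies lay between -6.74 and -6.49 kb. At chr1:147050552-147053802, within the span, LEF1 ranked between 5006 and 15934 and TCF7L2 between 537 and 1520, and the treatments overlapped for both antibodies.

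The gained TCF7L2 region of BCL9, chr1:147089476-147090642, lies within the span, 76.5 kb from the 5′ end. Its prednisolone folds were 5.89, 3.76 and 3.53 at ranks 1951, 7165 and 4297, and 2 control lists held weaker peaks, with folds of 2.74 and 2.47. LEF1 folds in the prednisolone libraries were 2.93, 5.28 and 5.36, of which only that of replicate 3 was a top peak, and of the control lists only replicate 1 held a LEF1 peak, with a fold of 2.08. It stood in place 111 of the 286 gained TCF7L2 regions.

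**Figure D4:**
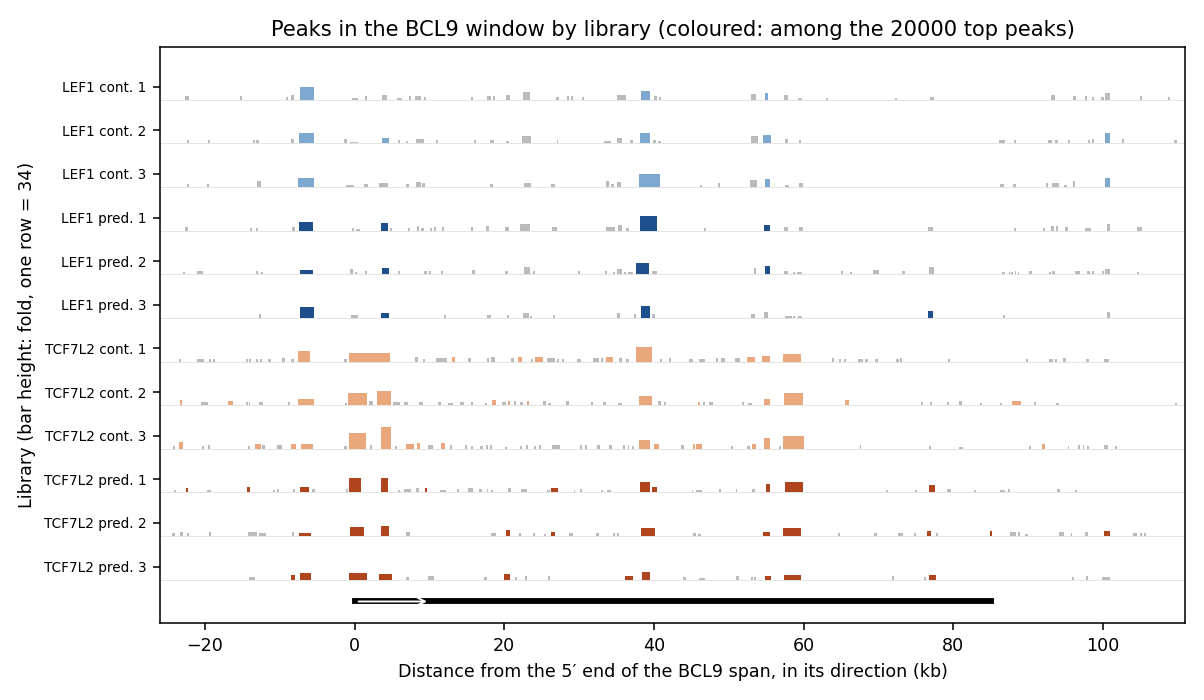
Peaks in the BCL9 window in each of the 12 libraries, drawn as in the GSK3B map, by distance from the 5′ end of the span (horizontal axis, kb). Coloured bars near -6 and 39 kb appear in all 12 rows, and those near 58 kb only in the TCF7L2 rows. The bar at the 5′ end is coloured in the TCF7L2 rows. LEF1 bars stand near 4 kb, where TCF7L2 top peaks also lie after prednisolone.

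CTNNB1 encodes beta-catenin, the coactivator of both factors. Its window (41216001 to 41307000 of chromosome 3, plus strand) held 1 LEF1 top peak in each of the 6 libraries, and 1, 2 and 1 TCF7L2 top peaks in control against 2, 1 and 1 in prednisolone libraries. The 1 in TCF7L2 prednisolone replicate 3 was a tied peak. The LEF1 peaks fell in 1 region that starts at the 5′ end and runs into the span, chr3:41241003-41245241, with summits from 1.35 to 3.03 kb. The folds of this CTNNB1 region were 10.83, 6.98 and 10.33 in control and 6.48, 7.73 and 8.93 in prednisolone libraries, which overlap. TCF7L2 had a top peak in it in the 3 control libraries and in prednisolone replicate 1. The folds of these TCF7L2 peaks were 3.36, 4.36 and 3.78 in control, and 3.7, 2.57 and 3.03 in prednisolone libraries, where the last 2 were not top peaks.

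APC encodes a scaffold of the destruction complex. Its window (112018001 to 112207000 of chromosome 5, plus strand) held 4, 3 and 4 LEF1 top peaks in control and 4, 4 and 6 in prednisolone libraries, and 3, 3 and 2 TCF7L2 top peaks in control against 0, 1 and 2 in prednisolone libraries. The TCF7L2 difference of -1.67 did not separate the groups (exact permutation p = 0.2, n = 3 each). The treatment effects of the antibodies differed by -2.67 (exact permutation p = 0.06). This was -3.0 to -3.17 (exact p = 0.03) without LEF1 prednisolone replicate 1 or 2 or TCF7L2 prednisolone replicate 3. The range was -3.17 to -2.0 over all libraries left out in turn. These p-values are unadjusted, and with all libraries the difference did not pass after adjustment over 13165 windows and tiles. TCF7L2 counts were below LEF1 counts by 2.33 on average (exact permutation p = 0.015, adjusted p = 0.148).

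The LEF1 region that APC held in all 6 libraries lies 16.8 kb before its 5′ end, at chr5:112018808-112026179. LEF1 folds there were 6.15, 8.72 and 7.31 in control and 12.35, 6.84 and 8.86 in prednisolone libraries, which overlap. TCF7L2 had a top peak in it in all 3 control libraries, with folds of 3.24, 3.36 and 3.63, and in no prednisolone library, where the folds were 2.2, 1.88 and 2.14. Since its TCF7L2 peaks do not all overlap one another, it is not counted among the lost TCF7L2 regions. Over the 5′ end of APC, chr5:112042156-112044639, LEF1 had a top peak in 3 of 6 libraries (control replicate 1 and prednisolone replicates 2 and 3), and TCF7L2 had one in control replicate 1 only.

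AXIN1, the scaffold on which the destruction complex assembles, and BTRC, the receptor of the ubiquitin ligase that recognises phosphorylated beta-catenin, had no LEF1 top peak in any library. The AXIN1 window (312001 to 428000 of chromosome 16, minus strand) held 1 TCF7L2 top peak, at chr16:346796-347541 in control replicate 2. The BTRC window (103089001 to 103342000 of chromosome 10, plus strand) held 3, 0 and 2 TCF7L2 top peaks in control and 2, 0 and 3 in prednisolone libraries. Of the 3 in prednisolone replicate 3, 2 were tied peaks. The only BTRC region with a top peak in 2 libraries, chr10:103325978-103326951, lies beyond the 3′ end of the span and held one in control replicate 1 and in prednisolone replicate 1. The BTRC counts had the same mean in both treatments (1.67 ± 1.53 in each, n = 3).

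Over the 9 windows, the share of LEF1 consensus regions (a top peak in all 3 libraries of a group) that overlapped a TCF7L2 consensus region was 5 of 11 in control cells, 45.5% (exact 95% Clopper-Pearson interval 16.7 to 76.6%), where it was 20.8% over all LEF1 consensus regions. After prednisolone it was 4 of 13, 30.8% (9.1 to 61.4%), where it was 10.6% over all. The intervals cover counting error only, they overlap each other, and with so few regions no difference between treatments was detectable. Of the 97 regions, 14 had LEF1 top peaks alone, 64 TCF7L2 top peaks alone and 19 both, and 62 had a top peak in 1 library.

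**Figure D5:**
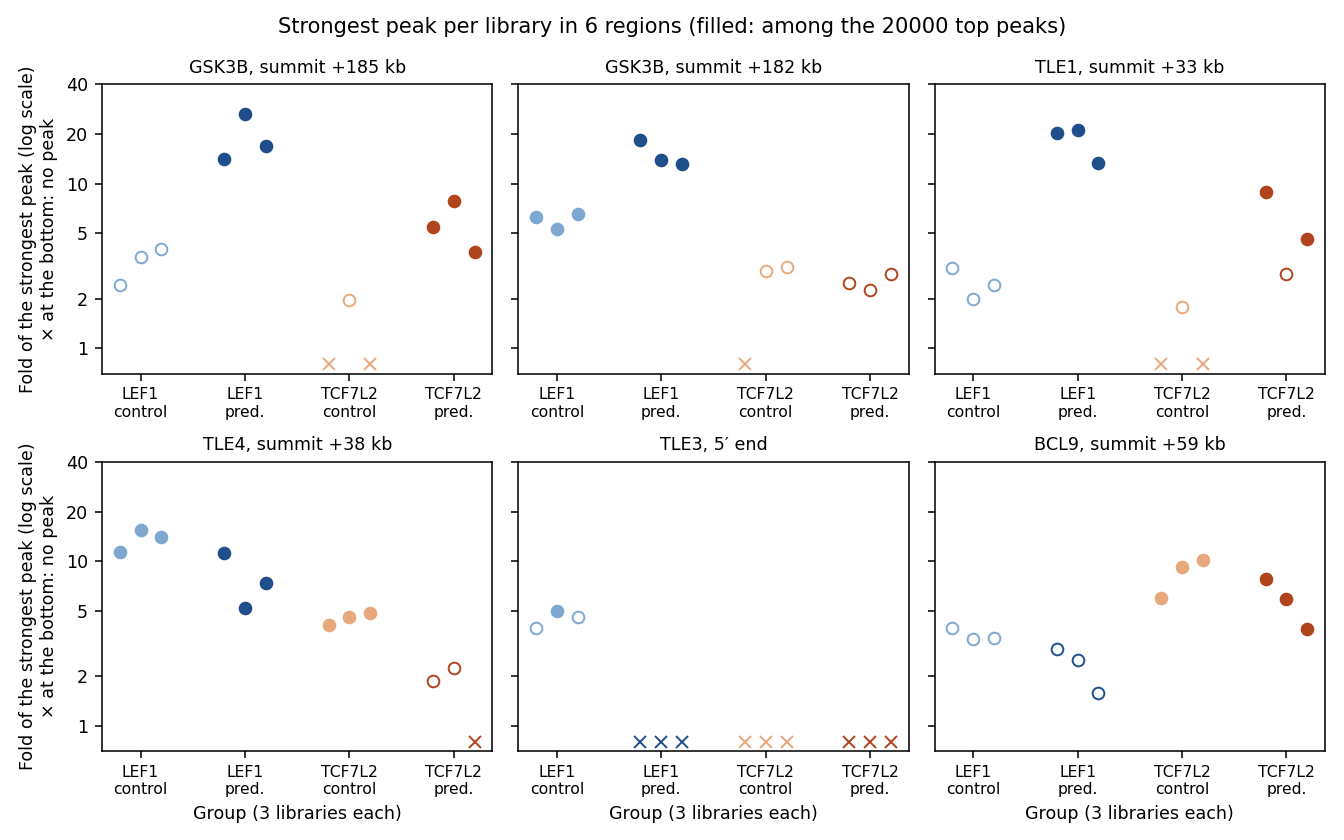
The authors' fold of the strongest peak (vertical axis, log scale) in 6 regions of GSK3B, TLE1, TLE4, TLE3 and BCL9, with 1 point per library in each group of 3; filled points are top peaks, open points other deposited peaks, and a cross marks no peak. In the gained GSK3B region the LEF1 prednisolone points lie at 14.11 to 26.38 and the control points at 2.42 to 4.0.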

How the data were processed

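CUT&RUN peak lists of Nalm6 cells were used, 12 in all, 3 for each antibody and treatment. Peaks were called with MACS2 on hg19, per the submitters' processing notes, and each library has its own list; the version, aligner, control library and duplicate handling are not given in the sources used here. The authors deposited for each peak a fold ratio over the modelled background and a −log10 p-value and −log10 q-value, and these were used only to rank, filter and describe peaks within a list. The highest share of intervals common to 2 lists was 0.0737% of the shorter list, so no list repeats another.

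Each list was ranked by −log10 p-value, then fold, then position, and its 20000 top peaks were kept. Peaks were counted in the gene spans ±25 kb and in 200-kb tiles of the genome, and merged into regions (overlap of at least 1 bp). Group means were compared by two-sided exact permutation of labels, adjusted by Benjamini-Hochberg over all windows and tiles or all regions with any top peak. The precision is set by 3 replicates per group. The code was tested on simulated data. Python 3.11.15, numpy 2.4.6, pandas 2.3.3 and scipy 1.17.1 were used.

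The genes and tests were chosen with earlier results of these data known. The regions named were drawn from the best-ranked and the 5′-end region (within 2 kb) of each gene and antibody. Not all of these are printed, and the best-ranked TCF7L2 regions of APC and TLE3 are among those left out. Every gained or lost region is named. Regions held by all libraries of 1 antibody or all 12, or with separated ranks, and regions of the full lists, were added after their values were seen. Alternatives were the list length, a −log10 q-value of at least 5, fold ranking, no extension of the span, random order of equal peaks, summit-based regions, bases covered, a replicate block and leaving out each library. No hg19 sequence or annotation was used here, so peak motifs, exons and introns, and other pathway genes were not analysed here. The IgG sample was not analysed here.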

Additional observations from a re-analysis of the deposited data

How the results depend on the processing

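Of 767 values recomputed under the alternatives, 685 changed neither in direction nor in call (exact tests, threshold 0.05), 19 passed it newly, 6 no longer passed, 34 counts or shares moved and 23 turned direction. The larger LEF1 and TCF7L2 counts at GSK3B after prednisolone, and the smaller TCF7L2 counts at TLE4, kept their direction in all alternatives but these: the TCF7L2 difference at GSK3B was -3.0 with the full lists (exact p = 0.9), and that at TLE4 was 0.0 among peaks whose −log10 q-value reached 5. The 20000-peak limit, the weakness of the TCF7L2 lists and 3 replicates per group limit all comparisons. The cause of the changes below was not tested.

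With 5000 top peaks, the prednisolone difference was -0.33 at APC and -1.33 at TLE4 for LEF1 and 0.67 at BCL9 for TCF7L2, the antibody difference (TCF7L2 minus LEF1) was -0.17 at CTNNB1 and -0.17 at APC, and the difference of treatment effects was 0.33 at APC, 1.0 at BCL9 and 0.67 at TLE4. The windows then held 1 lost LEF1, 1 gained and 0 lost TCF7L2 regions, 1 LEF1 region with better and 0 with worse ranks, and 0 regions held by LEF1 only and 3 by TCF7L2 only. With the full lists, the LEF1 difference at TLE4 was -3.67, and the antibody difference was -12.5 at APC, 10.33 at AXIN1, 12.5 at BCL9, 8.83 at TLE3 and -22.17 at TLE4. There were then 2 gained and 3 lost LEF1 regions, 1 gained and 6 lost TCF7L2 regions, and 4 held by LEF1 only and 0 by TCF7L2 only. Among peaks whose −log10 q-value reached 5, the antibody difference was -1.17 at CTNNB1, -2.67 at GSK3B, -0.33 at BTRC, 0.17 at BCL9, -0.33 at TLE3 and -5.83 at TLE4, and the difference of effects at BCL9 was 0.33. There were then 0 gained and 0 lost TCF7L2 regions and 6 held by LEF1 only.

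Without the 25-kb extension, the antibody difference was -0.83 at APC and -2.5 at TLE4 (exact p = 0.04). Ranked by fold, the antibody difference was 0.17 at GSK3B and 1.67 at BTRC (exact p = 0.04), the difference of effects at GSK3B was 0.33, and there were 1 LEF1 region with better ranks and 2 held by LEF1 only. With summit-based regions there were 1 LEF1 region with better ranks, 0 held by LEF1 only and 2 by TCF7L2 only. Counted as kb covered, the prednisolone difference was -1.38 at TLE4 for LEF1 and -0.38 at TLE1 for TCF7L2, the antibody difference was -2.41 at CTNNB1, -3.82 at GSK3B, -3.87 at TLE1 and -6.21 at TLE4, and the difference of effects at TLE1 was -3.83.

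Deviations of same-numbered libraries had correlations of -0.1123 to 0.0211 over 18 pairs, and those of other libraries -0.0283 to 0.0849 over 36 pairs. Both are near 0, so this check cannot decide whether the numbers pair the samples, and the main tests treat them as unpaired. With the replicate block, the antibody difference at APC was -2.33 with an exact p of 0.0625. The exact block test cannot go below p = 0.25 over 3 pairs or 0.03125 over 6.

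Leaving out each library in turn, the antibody difference ranged from -3.25 to -1.5 at TLE4 (exact p = 0.04 without LEF1 control replicate 2 and 0.02 without TCF7L2 control replicate 1), from 1.33 to 2.08 at BTRC (p = 0.02 without TCF7L2 control or prednisolone replicate 2) and from -0.42 to 0.08 at TLE1. The LEF1 difference at TLE4 ranged from -1.0 to 2.5. The difference of effects ranged from -3.17 to -2.0 at APC, -5.83 to -2.33 at TLE4 and -1.0 to 0.5 at GSK3B. Lost LEF1 regions numbered 0 to 1 (1 without LEF1 control replicate 1), and LEF1 regions with worse ranks 1 to 2 (2 without LEF1 control or prednisolone replicate 2). Lost TCF7L2 regions numbered 1 to 3 (3 without TCF7L2 control replicate 1 or 2, 2 without prednisolone replicate 2), and TCF7L2 regions with better ranks 0 to 1 and worse ranks 0 to 2 (not 0 without control replicate 1 or 3 or prednisolone replicate 1). Regions held by LEF1 only numbered 1 to 3 (3 without LEF1 prednisolone replicate 2, 2 without TCF7L2 control replicate 2), and by TCF7L2 only 1 to 2 (2 without TCF7L2 control replicate 1).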

Other observations

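The full lists, top peaks included, gave further places with a peak in all 3 libraries of one treatment and in none of the other. For LEF1 these were at CTNNB1 (chr3:41281292-41281704) and at APC (chr5:112133400-112134000) in control lists only, and at GSK3B (chr3:119684712-119685729) in prednisolone lists only, besides the TLE3 place and the short GSK3B place before the 5′ end given above. Of the 6 TCF7L2 regions in control lists only, 2 were at BTRC and 1 each at BCL9, CTNNB1, APC and TLE1. The TCF7L2 region in prednisolone lists only lay within the GSK3B span (chr3:119558064-119558765). One of the BTRC regions, chr10:103113894-103114425, lies over the 5′ end of the gene, with folds of 1.57, 2.2 and 2.25 in the control lists. These folds are low, and no test was made of them.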
